A study of Mus musculus with 6 samples.

Results

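Leukocytes leave the blood by rolling on, sticking to and then crossing the endothelium, and the molecules that the endothelium displays for these steps were examined in brain endothelial cells with an induced deletion of Rbpj, which encodes the nuclear partner of activated Notch receptors. The group holds 9 genes, chosen by name: the immunoglobulin superfamily members Vcam1, Icam1, Icam2, Madcam1 and Alcam, the selectins Sele and Selp, the sialomucin Cd34 and the chemokine-binding receptor Ackr1. All 9 were found by symbol among the 55450 gene rows of the count table, 1 row each, and all 9 passed the filter on low counts. RNA-seq libraries of polyadenylated RNA were made from brain cells of mice at postnatal day 7, selected with beads against CD31, a surface protein of endothelium. The mutant group had 3 libraries from Cdh5(PAC)-CreERT2; Rbpjflox/flox mice and the control group had 3 libraries from Cdh5(PAC)-CreERT2; Rbpjflox/WT mice.

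Both groups carried the tamoxifen-inducible Cre under control of regulatory sequence of Cdh5, an endothelial cadherin gene, and tamoxifen (100 µg into the stomach, on postnatal days 1 and 2) was given to both, so control mice also had 1 Rbpj allele open to recombination. A separate time field of the labels reads day 0 for every library, while the age, strain and description fields give day 7, which was used. Mice of either sex were used, on a background that mixed FVB/N with C57BL/6. Many animals were pooled for each group, and the labels do not say that its 3 libraries came from separate pools, so p-values measure the spread between libraries, which may be technical. Rbpj itself had 47.9, 46.8 and 45.2 CPM (counts scaled to library size) in mutant libraries, against 54.3, 54.3 and 53.8 CPM in control libraries, a log2 fold change of -0.21 ± 0.04 (SE, adjusted p = 0.0129 by edgeR's quasi-likelihood test). The call was lost without mutant library 2, control library 1 or control library 2 (adjusted p = 0.051, 0.0571 and 0.0543 by edgeR's quasi-likelihood test). Reads from exons that Cre does not remove enter this count, which makes it a weak check of the deletion.

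In resting endothelium some of these molecules are present at low levels, and inflammatory cytokines acting through NF-kB raise several of them within hours. Selectins catch passing leukocytes, the chemokines presented at the vessel wall switch on leukocyte integrins, and the integrins then bind ICAM and VCAM proteins to arrest the cell. In the brain this traffic is low and concentrates in venules after the capillaries.

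Of the 9 genes, 3 were called lower in the mutant libraries (Vcam1, Icam1 and Sele) and 2 were called higher (Cd34 and Madcam1), where a call means an adjusted p under 0.05 in edgeR's quasi-likelihood test over all 19549 genes tested. The other 4 (Icam2, Selp, Alcam and Ackr1) were not called. Over all genes tested, 14.4% were called in either direction, 6.83% lower and 7.56% higher. Among the 12268 genes with a mean of at least that of Selp, the lowest of the 9, 20.5% were called in either direction. The median log2 fold change of the 9 genes, mutant over control, was -0.14, and that of all genes tested was -0.01. The libraries of the groups did not overlap for 6 of the 9 genes, with 2 higher and 4 lower in mutant libraries, against 16.8% and 17.3% of all genes tested.

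**Figure D1:**
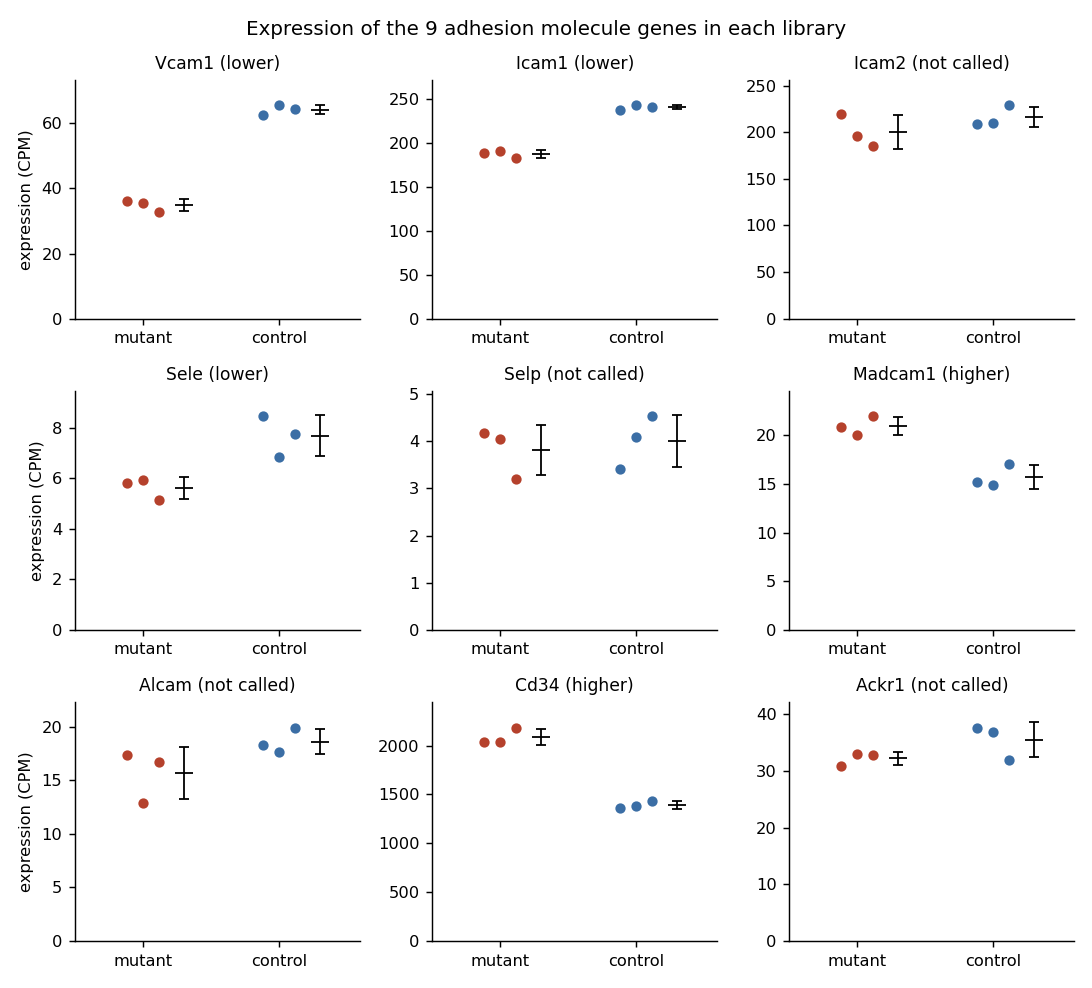
Expression in CPM (vertical axes, each starting at 0) of the 9 genes in each of 3 mutant and 3 control libraries (points), with the mean and SD of each group (bars). Vcam1, Icam1, Sele and Alcam had every mutant library below every control library, Madcam1 and Cd34 had every mutant library above every control library, and the groups overlapped for Icam2, Selp and Ackr1.

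The promoters of Madcam1 and Sele are printed because these 2 genes were called in opposite directions and both carry matches to the RBPJ core. Exact matches to the NF-kB consensus GGGRNNYYCC (R is A or G, Y is C or T, N is any base) lay in Madcam1 only. RefSeq promoters (GRCm38.p6, from 250 bases before to 50 bases after the start) were matched by symbol for 7 of the 9 genes: Icam1, Sele, Selp, Madcam1, Alcam, Cd34 and Ackr1. In the Madcam1 promoter (chr10:79664309-79664608, plus strand) the capitals mark 2 matches to the NF-kB consensus, and in the Sele promoter (chr1:164047984-164048283, plus strand) they mark the RBPJ core.
Madcam1: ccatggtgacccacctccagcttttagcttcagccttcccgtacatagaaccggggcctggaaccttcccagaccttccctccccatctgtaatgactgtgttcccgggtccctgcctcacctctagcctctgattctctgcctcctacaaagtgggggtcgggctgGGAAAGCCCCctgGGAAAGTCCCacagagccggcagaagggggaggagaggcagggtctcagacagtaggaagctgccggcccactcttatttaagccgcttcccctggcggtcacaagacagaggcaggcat
Sele: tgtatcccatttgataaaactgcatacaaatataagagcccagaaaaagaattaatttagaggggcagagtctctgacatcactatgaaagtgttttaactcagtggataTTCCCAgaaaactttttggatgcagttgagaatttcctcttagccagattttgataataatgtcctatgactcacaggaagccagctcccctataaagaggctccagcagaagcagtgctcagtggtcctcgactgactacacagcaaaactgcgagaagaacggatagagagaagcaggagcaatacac
Positions are counted from the start, with -1 as the base before it, and refer to the first base of a match on the strand of the gene. The NF-kB matches of Madcam1 began at -83 and -70, both on the opposite strand. Each overlapped a match to the RBPJ core TGGGAA on the strand of the gene, at -85 and -72. A further RBPJ core lay at -185 on the opposite strand. Sele had the RBPJ core on the opposite strand at -140 and the AP-1 motif TGANTCA at -73. Ackr1 had an RBPJ core at -211 and Selp an AP-1 motif at -139, and in the promoters of Icam1, Alcam and Cd34 none of the 3 motifs was matched. Both strands were searched and no mismatch was allowed, so a site that departs from a motif by a single base was not counted. The absence of a match therefore does not show that a promoter lacks NF-kB sites. Of 32851 RefSeq promoters of this length, 8.46% held the NF-kB consensus, 25.6% the RBPJ core and 7.81% the AP-1 motif. A match describes the letters of the window and is not evidence of binding.

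Vcam1 (ENSMUSG00000027962; chromosome 3, 116109949 to 116129688, minus strand, GRCm38) encodes the endothelial ligand of the integrin VLA-4, which stands on lymphocytes and monocytes. Its expression was 36.2, 35.5 and 32.8 CPM in mutant libraries, against 62.6, 65.5 and 64.6 CPM in control libraries. All 3 mutant libraries lay far below every control library, at 0.543 times the control mean on average. Vcam1 thus had the largest change of the 9: it fell by 0.88 ± 0.05 on the log2 scale (SE, 95% interval -1.002 to -0.76, adjusted p = 5.25e-05 by edgeR's quasi-likelihood test). Only 157 genes were called lower with a log2 fold change at or below that of Vcam1. The gene overlaps an antisense gene, Gm43109, which had 0 counts in every library.

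Vcam1 is also made by fibroblasts, mural cells, choroid plexus and other cells of the brain. Markers of fibroblasts summed to 530 to 702 CPM in mutant libraries and 802 to 908 CPM in control libraries, with 2 of 7 markers lower and none higher. Choroid plexus markers summed to 3465 to 4507 CPM in mutant and 5121 to 5570 CPM in control libraries, with 2 of 6 lower. Astrocyte markers summed to 235 to 364 CPM in mutant and 451 to 502 CPM in control libraries, with 1 of 6 lower. Neuron markers summed to 210 to 259 CPM in mutant and 195 to 212 CPM in control libraries, with 1 of 7 lower. Oligodendrocyte markers summed to 33.4 to 42.3 CPM in mutant and 31.0 to 32.6 CPM in control libraries, with 2 of 6 higher and 1 lower. Pericyte and smooth muscle markers summed to 4046 to 4140 CPM in mutant and 3964 to 4068 CPM in control libraries, with 3 of 11 higher and 5 lower. This sum is carried by pericyte genes, of which Abcc9 (log2 fold change 0.52), Kcnj8 (0.49) and Cspg4 (0.19) were higher and Vtn (-0.18) was lower. The smooth muscle genes Acta2 (-1.32), Tagln (-1.17), Myh11 (-1.02) and Cnn1 (-1.84) were all lower, each by more than Vcam1. Acta2 averaged 71.7 ± 9.12 CPM in mutant and 179 ± 6.22 CPM in control libraries (SD, n = 3 each). None of these markers was at 0 in all libraries. Their part in the fall of Vcam1 was not tested, and in pooled bulk libraries fewer cells of a type and less RNA per cell cannot be told apart.

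Over the 6 libraries, the genes whose log2 profiles lay closest to that of Vcam1 among 11737 others with a mean of at least 5 CPM were Gas6, Eln and Ogn, with root mean square distances of 0.0316, 0.039 and 0.0506 on the centred log2 scale. Gas6 had 119 ± 4.62 CPM in mutant and 212 ± 1.59 CPM in control libraries (SD, n = 3 each).

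Icam1 (ENSMUSG00000037405; chromosome 9, 21015985 to 21028817, plus strand) encodes the main ligand of the leukocyte integrin LFA-1. Its expression was 189, 190.4 and 183 CPM in mutant libraries, against 238, 243 and 241 CPM in control libraries. The 3 mutant libraries lay close together and below all controls. The log2 fold change was -0.36 ± 0.03 (SE, 95% interval -0.44 to -0.29, adjusted p = 0.000315 by edgeR's quasi-likelihood test). An antisense gene at the locus, Gm47079, had 0 CPM in mutant and 0.24 to 0.378 CPM in control libraries.

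Icam2 (ENSMUSG00000001029; chromosome 11, 106377656 to 106388075, minus strand), a constitutive endothelial ligand of LFA-1 that does not depend on cytokines, had 219.9, 195 and 185 CPM in mutant libraries, against 209, 210.2 and 229 CPM in control libraries. Mutant library 1 lay within the control range and the other mutant libraries below it. Its log2 fold change was -0.11 ± 0.07 (SE, 95% interval -0.27 to 0.05, adjusted p = 0.372 by edgeR's quasi-likelihood test), so the interval still allows a value of -0.27, next to the upper bound of Icam1's interval. The value moved to -0.18 without mutant library 1, to -0.052 without mutant library 3 and to -0.069 without control library 3, and was not called in any of them. Within a library, where scaling between libraries plays no part, the level per length of Icam1 over that of Icam2 was 0.374, 0.426 and 0.431 in mutant libraries, against 0.496, 0.504 and 0.460 in control libraries. These ratios did not overlap between the groups.

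Madcam1 (ENSMUSG00000020310; chromosome 10, 79664559 to 79668537, plus strand) encodes the mucosal addressin, which guides lymphocytes into gut venules by binding an Itga4-Itgb7 integrin. Its expression was 20.9, 20.1 and 21.9 CPM in mutant libraries, against 15.2, 14.9 and 17.1 CPM in control libraries. All mutant libraries were above all control libraries. It rose by 0.41 ± 0.08 on the log2 scale (SE, 95% interval 0.23 to 0.60, adjusted p = 0.0116 by edgeR's quasi-likelihood test). Vcam1 and Madcam1, both ligands of integrins that contain the Itga4 chain, thus moved in opposite directions. The level per length of Vcam1 over that of Madcam1 was 0.281, 0.287 and 0.242 in mutant libraries, against 0.667, 0.714 and 0.612 in control libraries.

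Alcam (ENSMUSG00000022636; chromosome 16, 52248996 to 52454074, minus strand) binds CD6 on T cells and also binds itself on neighbouring cells. It had 17.4, 12.9 and 16.7 CPM in mutant libraries, against 18.3, 17.6 and 19.9 CPM in control libraries. The groups did not overlap, as was the case for 34.1% of all genes tested, but mutant library 2 stood below the other 2 mutant libraries. The log2 fold change of -0.25 ± 0.12 (SE, 95% interval -0.53 to 0.03) was not called (adjusted p = 0.242 by edgeR's quasi-likelihood test). Without mutant library 2 it was -0.12.

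Sele (ENSMUSG00000026582; chromosome 1, 164048234 to 164057677, plus strand) encodes E-selectin, made by cytokine-activated endothelium. Its expression was 5.79, 5.92 and 5.13 CPM in mutant libraries, against 8.44, 6.85 and 7.75 CPM in control libraries. The groups did not overlap, though mutant library 2 and control library 2 lay within 1 CPM of each other. The log2 fold change was -0.45 ± 0.12 (SE, 95% interval -0.73 to -0.18, adjusted p = 0.043 by edgeR's quasi-likelihood test). Sele rested on 380 to 668 counts per library, which stand for about 95 to 167 read pairs, and its call was the least secure of the 5. Its adjusted p rose to between 0.0833 and 0.139 without mutant library 1, 2 or 3 or control library 1 or 3, and was 0.0459 without control library 2. With the replicate number as a block it was 0.0934.

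Selp (ENSMUSG00000026580; chromosome 1, 164115264 to 164150026, plus strand) encodes P-selectin, which endothelial cells store in Weibel-Palade bodies and platelets in granules. Its expression was 4.18, 4.04 and 3.20 CPM in mutant libraries, against 3.42, 4.08 and 4.53 CPM in control libraries. The groups overlapped. The log2 fold change was -0.08 ± 0.16 (SE, 95% interval -0.45 to 0.30, adjusted p = 0.829 by edgeR's quasi-likelihood test). About 59 to 93 read pairs stood behind each library's value, so the interval reaches a fall as large as that of Sele. Platelet markers summed to 12.5 to 14.7 CPM in mutant and 11.5 to 18.3 CPM in control libraries, and none of the 7 tested was called. The level per length of Sele over that of Selp averaged 2.25 ± 0.168 in mutant and 2.96 ± 0.675 in control libraries (SD, n = 3 each).

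Cd34 (ENSMUSG00000016494; chromosome 1, 194938819 to 194961279, plus strand) encodes a sialomucin of endothelium and blood progenitors that can carry the sugars bound by L-selectin, and it is used as a marker of tip cells, the leading cells of growing vessels. Its expression was 2039, 2042 and 2185 CPM in mutant libraries, against 1358, 1381 and 1436 CPM in control libraries. Every mutant library exceeded every control library by a wide margin. It rose by 0.59 ± 0.04 on the log2 scale (SE, 95% interval 0.49 to 0.68, adjusted p = 8.72e-05 by edgeR's quasi-likelihood test). Of all genes tested, 515 were called higher with a log2 fold change at least as large. The antisense gene Gm16897 at the locus had 1.38 to 2.3 CPM in mutant and 0.897 to 1.65 CPM in control libraries.

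Ackr1 (ENSMUSG00000037872; chromosome 1, 173331886 to 173333750, minus strand) encodes the atypical chemokine receptor that carries chemokines across venular endothelium and is also present on red blood cells. Its expression was 30.8, 32.9 and 32.9 CPM in mutant libraries, against 37.6, 36.9 and 32.0 CPM in control libraries. Control library 3 fell within the mutant range. The log2 fold change of -0.14 ± 0.07 (SE, 95% interval -0.31 to 0.03) was not called (adjusted p = 0.278 by edgeR's quasi-likelihood test). Its annotated exons overlap those of Cadm3 on the same strand, with 15.8 to 29.9 CPM in mutant and 14 to 25.5 CPM in control libraries, so its counts are uncertain. Erythroid markers summed to 4665 to 4961 CPM in mutant and 6974 to 7179 CPM in control libraries, with 5 of 7 lower. Venous endothelial markers summed to 2993 to 3287 CPM in mutant and 3247 to 3394 CPM in control libraries, with 1 of 8 higher and 2 lower.

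**Figure D2:**
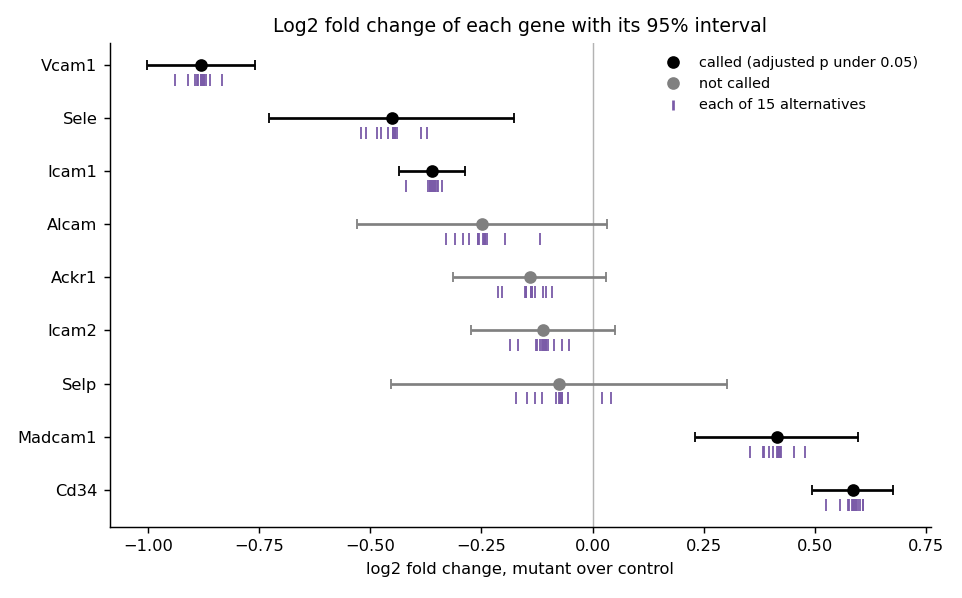
Log2 fold change, mutant over control (horizontal axis), of each of the 9 genes with its 95% interval, in black where called and in grey where not, above ticks for its value in each of 15 alternative analyses. Vcam1 lies lowest at -0.88 and Cd34 highest at 0.59, and only Selp has ticks on both sides of 0.

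Set side by side per length of exon (TPM, computed here from the deposited counts), the 9 genes spanned a wide range of levels. Cd34 stood first with 803 ± 24.7 TPM in mutant and 529 ± 7.79 TPM in control libraries (SD, n = 3 each). Icam2 followed with 295 ± 29.4 TPM in mutant and 314 ± 9.63 TPM in control libraries, and Icam1 with 120 ± 3.59 TPM in mutant and 153 ± 3.55 TPM in control libraries. The remaining order in mutant libraries was Ackr1 (64.2 TPM), Madcam1 (40.9), Vcam1 (11.02), Alcam (6.16), Sele (5.41) and Selp (2.42). Control libraries had the same order except that Sele (7.30 TPM) stood above Alcam (7.23). Alcam and Sele were the only neighbours in either group whose ranges over libraries overlapped. Cd34 made up 59.6% of the summed TPM of the 9 genes in mutant and 46.7% in control libraries, and Vcam1 0.818% in mutant and 1.77% in control libraries. With the longest transcript as the length, Vcam1 (35.4 TPM) stood above Madcam1 (24.6 TPM) in control libraries, while in mutant libraries Madcam1 (33.0 TPM) stayed above Vcam1 (19.3 TPM).

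**Figure D3:**
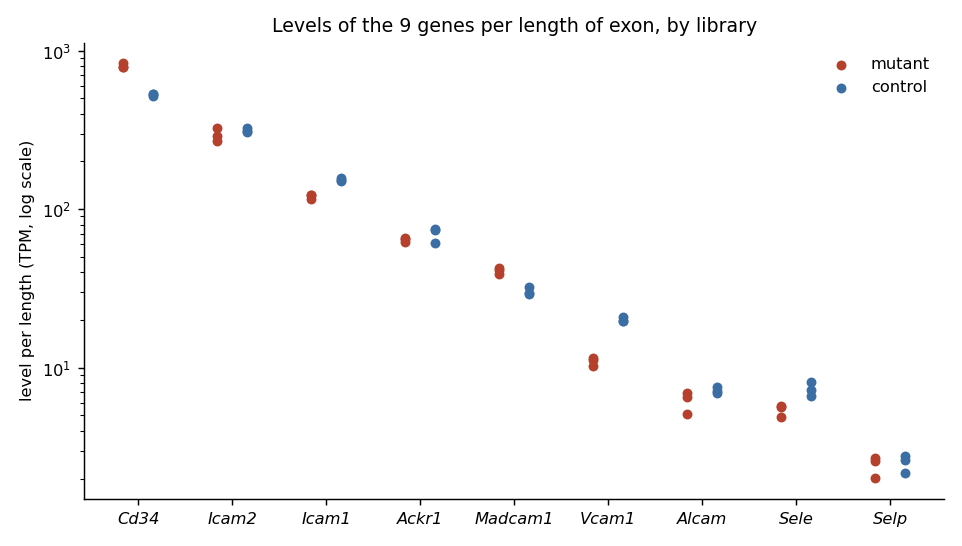
Level per length in TPM (vertical axis, log scale) of the 9 genes in each mutant and control library (points), in the order of their mean in mutant libraries. The 3 libraries of a group lie close together for most genes, and Vcam1 has the widest gap between the groups, 11.02 TPM on average in mutant and 20.1 TPM in control libraries.

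The wider adhesion pathway was described with 9 lists of companion genes. Antisense genes overlap the exons of Mcam, Bcam, Cd99l2, Itga4, Il1b, Ikbkg, Nfkb2, Anxa2, Arhgef26, Msn, Ezr, Rhoa, Adam8, Adam15, Adam17, Timp3 and St3gal6, whose counts are uncertain to that extent. Of 151 distinct companion genes tested, 29 were called higher and 27 lower, which is 37.1%, against 14.4% of all genes tested. Among all genes with a mean of at least that of Selp the share was 20.5%. The lists were chosen with earlier results of these data known, so these shares are not a test of the pathway. Among molecules of endothelial junctions and leukocyte crossing, 5 of 14 were higher and 4 lower (median log2 fold change 0.01). Mcam, an adhesion protein of endothelium and mural cells, rose by 1.04 ± 0.03 on the log2 scale, to 902 ± 9.27 CPM in mutant libraries against 439 ± 11.2 CPM in control libraries (SD, n = 3 each). The poliovirus receptor gene Pvr (log2 fold change 0.65) and Pecam1 (0.41), whose product CD31 was the antigen of the bead selection, were also higher. Bcam, a laminin receptor (-0.51), and the junctional molecules Jam2 (-0.36) and Cd99l2 (-0.24) were lower. The call of Cd99l2 was lost in 6 of 15 alternatives. Esam had 981 CPM in mutant and 1041 CPM in control libraries and was not called. It was called lower with libraries scaled to endothelial markers (-0.15, adjusted p = 0.0178 by edgeR's quasi-likelihood test). Esam is itself 1 of those 11 markers, and this scaling moved the median log2 fold change of all genes to -0.07.

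Other adhesion molecules and sialomucins of endothelium were higher in 3 and lower in 3 of 13 cases (median 0.17). Aoc3, the vascular adhesion protein and amine oxidase, had 19.8, 21.1 and 18.9 CPM in mutant libraries, against 36.2, 35.7 and 33.1 CPM in control libraries, and fell by 0.81 ± 0.07 on the log2 scale (SE, adjusted p = 0.000211 by edgeR's quasi-likelihood test). Smooth muscle genes were also lower in these libraries, and the part of such cells in the Aoc3 values was not tested. Cx3cl1, the membrane-bound chemokine fractalkine (-0.54), and Podxl, a sialomucin related to Cd34 (-0.38), were lower as well. Emcn, the endothelial sialomucin endomucin (0.47), Cd93 (0.38) and Cd200 (0.35) were higher, though Cd200 lost its call in 6 of 15 alternatives. Podxl fell to 842 ± 53.6 CPM in mutant libraries, against 1097 ± 29.4 CPM in control libraries, while its relative Cd34 rose. Sema7a, at 622 CPM in mutant and 577 CPM in control libraries, was not called.

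On the side of the receptors, 3 of 14 leukocyte integrins and other counter-receptors were higher and none lower (median 0.23). Itga4, the integrin chain that binds Vcam1 and Madcam1, had 389.5, 389 and 415 CPM in mutant libraries, against 248, 251 and 246 CPM in control libraries. It rose by 0.68 ± 0.04 on the log2 scale (SE, adjusted p = 3.25e-05 by edgeR's quasi-likelihood test). Its partner Itgb1 (1312 CPM in mutant and 1222 CPM in control libraries) was not called, though it was called higher with library size only (adjusted p = 0.036) or counts divided by 4 (adjusted p = 0.0405), both by edgeR's quasi-likelihood test. Itgax rose by 0.94 ± 0.13 on the log2 scale, and Cd6, the T cell receptor of Alcam, was called higher. Cd6 had 0.547, 0.515 and 1.04 CPM in mutant libraries, against 0.0505, 0.0978 and 0.122 CPM in control libraries, so its call rests on very few read pairs in the controls. The leukocyte genes Ptprc (18.7 CPM in mutant and 16.0 CPM in control libraries) and Itgb2 (19.7 and 17.6 CPM), of the same list, were not called. Both were far below Itga4 in level. Lymphocyte markers summed to 17.3 to 20.8 CPM in mutant and 15.9 to 18.3 CPM in control libraries with none of 9 called. Granulocyte markers summed to 60.3 to 83.1 CPM in mutant and 45.8 to 61.7 CPM in control libraries, with 1 of 8 higher. Microglia and macrophage markers summed to 1341 to 1416 CPM in mutant and 1706 to 1752 CPM in control libraries, with 8 of 13 lower. The part of these cells in the higher Itga4, Itgax and Cd6 values was not tested.

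Genes of NF-kB, TNF and IL-1 signalling were mostly not called: 4 of 30 were higher and 1 lower (median -0.02). The cytokine genes Tnf (12.4 ± 1.17 CPM in mutant and 6.45 ± 0.351 CPM in control libraries, SD, n = 3 each) and Il1b (7.39 ± 1.19 CPM in mutant and 4.41 ± 0.425 CPM in control libraries) were called higher, with log2 fold changes of 0.94 and 0.75. Both are known inducers of Vcam1, Icam1 and Sele, which were lower in the same libraries. Neither the cells that made the Tnf and Il1b RNA nor an effect on these genes was tested. Il1b lost its call without control library 2 or 3 (adjusted p = 0.055 and 0.0561 by edgeR's quasi-likelihood test). The NF-kB inhibitor gene Tnip1 (0.28) was higher, and Ikbkg, a subunit of the kinase that activates NF-kB, was lower (-0.31), a call lost in 6 of 15 alternatives. The NF-kB subunit genes Nfkb1, Nfkb2, Rel, Rela and Relb were not called, with log2 fold changes from -0.03 to 0.22. Nor were the receptor genes Tnfrsf1a, Tnfrsf1b and Il1r1. Il6st, the most abundant gene of the list that was not called, had 140.1, 241 and 149 CPM in mutant libraries, against 187, 320.3 and 298 CPM in control libraries.

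Weibel-Palade bodies, the granules that hold P-selectin, had 3 of 21 genes higher and 3 lower (median 0.03). Angpt2, a ligand stored with von Willebrand factor, rose to 333 ± 13.8 CPM in mutant libraries, against 105 ± 3.07 CPM in control libraries. Anxa2 (0.62), of a complex that takes part in granule release, and the small GTPase gene Rala (0.31) were higher. Sytl4 (-0.68) and Myrip (-0.67), which link Rab27 to the granule and to the actin cytoskeleton, were lower, both at under 20 CPM in either group. Vwf, the main content of the granule, had 1605 ± 102 CPM in mutant and 1470 ± 63.0 CPM in control libraries and was not called.

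Of 18 cytoskeletal genes that anchor adhesion molecules or build the cup around a docked leukocyte, 3 were higher and 1 lower (median 0.04). Moesin (Msn), which ties ICAM and VCAM proteins to actin, rose to 1247 ± 35.6 CPM in mutant libraries, against 967 ± 8.73 CPM in control libraries, a log2 fold change of 0.37 ± 0.03 (SE). Arhgef26, an exchange factor that acts below Icam1 (0.52), and its target Rhog (0.19) were higher too, and Rhog was not called with libraries scaled to endothelial markers (adjusted p = 0.0908 by edgeR's quasi-likelihood test). Ezrin (Ezr) was lower (-0.24), and its adjusted p was 0.0765, 0.105 and 0.089 without mutant library 2, control library 1 or control library 2. Rhoa, at 960 CPM in mutant and 922 CPM in control libraries, was not called.

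Genes of ectodomain shedding, by which adhesion molecules are cut from the cell surface, were higher in 3 and lower in 3 of 10 cases (median -0.10). Mmp9 had 54.7, 49.9 and 47.9 CPM in mutant libraries, against 21.6, 20.3 and 17.9 CPM in control libraries, a log2 fold change of 1.35 ± 0.09 (SE, adjusted p = 7.07e-05 by edgeR's quasi-likelihood test). Mmp14 was higher (0.32), and Rhbdf2 (-0.33), Adam15 (-0.32) and the inhibitor gene Timp3 (-0.21) were lower. Adam8, also called higher, had the largest change of the list (1.83), at only 4.188 CPM in mutant and 1.175 CPM in control libraries. Adam17, which cuts Vcam1 and Icam1, was not called (125.8 CPM in mutant and 128 CPM in control libraries). Adam10 had 297, 291 and 566 CPM in mutant libraries, against 537.5, 545 and 532 CPM in control libraries. Mutant library 3 stood with the controls. Without it the log2 fold change of Adam10 was -0.87 (adjusted p = 2.81e-05 by edgeR's quasi-likelihood test), against -0.48 (adjusted p = 0.412 by the same test) with it. Adam10 was not called in 14 of 15 alternatives. Leaving out the mutant library that stood apart removes the spread, so the smaller p-value is not evidence of a fall.

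Enzymes that build selectin ligands were higher in 2 and lower in 3 of 11 cases (median 0.14). The fucosyltransferase gene Fut4 rose by 0.90 ± 0.10 on the log2 scale, and Chst2, which sulphates sialomucin sugars, by 0.37 ± 0.04. The sialyltransferase gene St3gal6 (-0.49), the tyrosine sulphotransferase gene Tpst1 (-0.33) and B4galt1 (-0.15) were lower. B4galt1 lost its call in 6 of 15 alternatives. Tpst2 overlapped between groups, with 55.7 ± 9.19 CPM in mutant and 43.2 ± 11.8 CPM in control libraries.

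Of 20 transcription factors reported to act on adhesion molecule genes, 3 were higher and 9 lower (median -0.22). The list holds Rbpj, the targeted gene, which is 1 of its 9 factors called lower and also enters the 151 companion genes. Klf2, a flow-responsive factor known to restrain Vcam1 and Sele, had 198, 203 and 198 CPM in mutant libraries, against 304, 301 and 308 CPM in control libraries, and fell by 0.61 ± 0.03 on the log2 scale (SE, adjusted p = 2.39e-05 by edgeR's quasi-likelihood test). Klf4, its relative, fell by 0.55 ± 0.06. The Notch target Hey1 was called lower (-0.52), a call lost in 8 of 15 alternatives. Ets2 (0.85), Ets1 (0.32) and Klf6 (0.32) were higher. Erg, an endothelial factor that restrains Icam1, had 194 ± 8.03 CPM in mutant and 183 ± 6.08 CPM in control libraries and was not called.

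**Figure D4:**
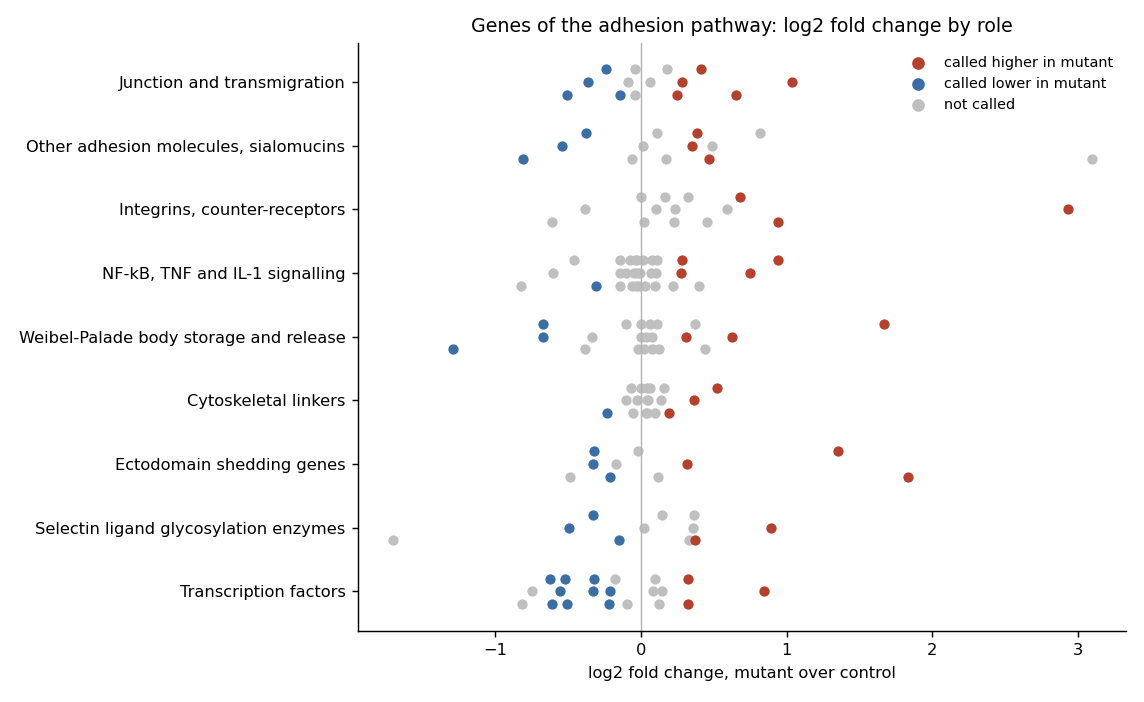
Log2 fold change, mutant over control (horizontal axis), of the tested genes of 9 companion lists (rows), coloured by whether a gene was called higher, lower or not called; points are spread vertically for legibility only. Called genes lie on both sides of 0 in every list except that of integrins and counter-receptors, where 3 were higher and none lower.

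As a check of the cell type, the 11 endothelial markers, which included Pecam1, Cdh5 and Cldn5, were all present and summed to 12780 to 13780 CPM in mutant and 12400 to 12730 CPM in control libraries, with 4 higher and 2 lower. Total counts were 75744913 to 81556241 in mutant and 78577192 to 82092461 in control libraries, with about 4 counts to a read pair. On the second principal component, with 15.8% of the variance, mutant library 3 lay at -21.9 and the other 5 libraries between -9.28 and 17.6. Without mutant library 3, Vcam1, Icam1, Madcam1 and Cd34 kept their calls and Sele did not. Intervals cover the spread between these libraries only.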

How the data were processed

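Poly(A) RNA-seq libraries, 3 mutant and 3 control, were compared. Estimated counts, as whole numbers without normalization, were deposited by the authors for each gene; the deposited quality table gives the count of valid reads. The submitters' processing notes name the build GRCm39 and the tools StringTie 1.3.4, HISAT2, FastQC 0.10.1, edgeR and cutadapt 1.10. The kit was stranded, per the labels' protocols; the tools' roles, the annotation and the use of strand in counting are not given in the sources used here. Without stated strand, reads of a gene and its antisense partner cannot be told apart. Gene symbols, exon lengths and coordinates come from GENCODE M21 (GRCm38), which holds every identifier of the table.

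Low counts pile up at 4 (1118 to 1190 genes per library, against 316 to 365 at 3), so about 4 counts stand for 1 read pair. Depth was 50226902 to 53986268 valid reads per library. Genes were filtered with filterByExpr, scaled by TMM and tested with edgeR 4.0.16 (R 4.3.3), quasi-likelihood with robust fitting and group as the only term, with Benjamini-Hochberg adjustment over all genes tested. In simulated data the estimates were unbiased at the median of changed genes with higher counts and lower dispersion, the only genes checked for this. The share of false calls was above the nominal level, and changed genes with low counts or high dispersion were often missed. The recovery required of this simulation was not met at first, and the requirement was narrowed 2 times to genes with higher counts and lower dispersion. Calls close to the threshold, such as those of Sele and Hey1, are therefore less secure. The SE is the log2 fold change over the square root of F. CPM used TMM-scaled totals, and TPM used the union of exons as length. No 2 libraries of a group agreed within sampling noise (median chi-square 1.87 to 2.77 times its expectation).

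The 9 genes, the companion and marker lists and the tests were chosen with earlier results of these data known. All 9 genes are named. From each companion list up to 3 called genes per direction are named, those with the largest change among genes of at least 5 CPM, and the most abundant one that was not called. Other genes (Itgax, Cd6, Ptprc, Itgb2, the NF-kB subunit and receptor genes, Adam8, Adam17) were named after their values were seen. Alternatives were RLE size factors, library size only, 2 other filters, DESeq2 1.42.0, limma-voom (limma 3.58.1), counts divided by 4, a replicate block and each library left out; scaling to summed endothelial markers was chosen after seeing the data.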

Additional observations from a re-analysis of the deposited data

How the results depend on the processing

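Vcam1, Icam1, Madcam1 and Cd34 kept their direction and their call in all 15 alternatives. Their log2 fold changes ranged from -0.94 to -0.83, -0.42 to -0.34, 0.35 to 0.48 and 0.52 to 0.61, and their highest adjusted p values by any tool were 0.00121, 0.00466, 0.0499 and 0.00116. Sele kept its direction in all 15 and its call in 9. Icam2, Alcam and Ackr1 were lower but not called in all 15. Selp, not called in any, changed sign without mutant library 3 (0.041) or control library 3 (0.020), within a range of -0.172 to 0.0406 when 1 library was left out. With 1 library left out, 2 to 3 of the 9 genes were called lower and 2 higher. Over all genes, 1477 were called higher and 1335 lower; with 1 library left out 1100 to 1270 were higher and 807 to 1125 lower, the fewest (807, 861 and 865) when control library 1, control library 2 or mutant library 2 was dropped, where fewer libraries entered the fit. Scaling to endothelial markers gave 1016 higher and 1685 lower, with a median log2 fold change of -0.07, and changed no call of the 9 genes. With library size only, 1442 were higher and 1416 lower.

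The replicate block called 1106 genes higher and 953 lower, with 2 of the 9 genes higher and 2 lower. Deviations of libraries with the same number had correlations of 0.0107, 0.0169 and 0.0389, against -0.028 to 0.0122 for libraries with different numbers. Correlations this weak cannot decide whether the numbers pair the samples, which the labels do not state. For NF-kB, TNF and IL-1 genes, 1 was lower and 4 higher, against 2 lower and 6 higher with DESeq2 and 2 lower and 4 higher with library size only. Depth limits Selp and Sele, where counting alone gives a coefficient of variation of 7.74% to 13% per library.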
